A study of Mus musculus with 9 samples.

Results

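Keratins Krt8, Krt18 and Krt19, which simple epithelia such as liver and bile duct make, and keratins Krt5, Krt14 and Krt10 of skin were followed over 3 groups of arrays. The 6 genes were taken by symbol and were 6 of 27573 named on the array, read by 8 of its 41174 probes that were not controls. Of these 8 probes, 7 were among the 19995 that entered the tests, for which 3 or more of the 9 arrays had to show Cy5 signal well above background. A probe could enter through the 3 TIC arrays alone, and the p-values of such a probe do not stand apart from this filter. The Krt10 probe A_52_P76277 never passed that mark and reached at most 7.75 intensity units.

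Keratins are intermediate filament proteins that pair a type II with a type I chain, and no filament forms from one type alone. Krt8 (type II) and Krt18 (type I) make the filaments of hepatocytes, while bile duct cells add the type I chain Krt19. Krt5 and Krt14 pair in the basal layer of the epidermis, and Krt10 is a type I keratin of the layers above it.

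The day 10 TIC group held the cell fraction enriched in tumour-infiltrating inflammatory cells that was made from ground subcutaneous tumours, 10 days after female Balb/c athymic mice had received cells of the mouse hepatoma line Hepa1-6. The day 10 Blood group held blood of the same mice on that day, and the day 0 Blood group their blood before inoculation. Each group had 1 array from each of the 3 mice, numbered 832, 833 and 834, and the Cy3 channel of every array held a common reference, RNA from blood of untreated C57Bl/6 females. Athymic mice lack a thymus and most T cells, the tumours came from 1 cell line, and the labels call the fraction enriched, so tumour cells could remain in it. RNA of the TIC fraction and of blood was extracted with different kits, and kit and tissue cannot be told apart.

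Between 48.2% and 55.1% of spots were well above background in Cy5 on the TIC arrays, against 14.2% to 21.0% on the day 10 blood arrays and 24.3% to 36.9% on the day 0 blood arrays. In Cy3 the share was 40.2% to 50.4%. Intensities below are spot minus local background and are not scaled between arrays, and each log2 ratio is Cy5 over Cy3 after loess normalization of its array. With median centring in place of loess, the median of all tested probes was 1.18 higher in the TIC fraction than in day 10 blood. Against day 0 blood it was 1.0 higher. Of the probes called in that scaling, 96.2% and 92.9% were higher, so its values below are to be read against this shift. The TIC array of mouse 832 was alone on its slide and was scanned on a different day from all the others. It had 103 spots of non-uniform background, against 0 to 21 on the others. The other TIC arrays shared a slide with the day 0 arrays of mice 832 and 833, and all day 10 blood arrays shared a slide with the day 0 array of mouse 834. No slide held TIC and day 10 blood arrays together. The day 0 blood array of mouse 833 stood apart, with 61 tested probes more than 1 log2 unit above every other blood array, against 0 to 12 such probes on the other blood arrays, and keratin results and list counts on day 0 blood are given with and without it. Among the TIC arrays, mouse 833 differed most from the others, and no keratin call was lost without it.

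The array files place both Krt8 probes on chromosome 15 of mouse build mm8, A_51_P242399 at chr15:101824949-101825008 and A_51_P242400 at chr15:101824817-101824876. The Krt18 probe lies at chr15:101859944-101860003 and the Krt5 probe at chr15:101535117-101535176. On chromosome 11 are the probes of Krt19 (chr11:99957168-99957227), Krt14 (chr11:100019459-100020064) and Krt10 (A_51_P111285, chr11:99201715-99202057), and A_52_P76277 lies at chr11:99202770-99202829. The Krt14 probe and the tested Krt10 probe span 606 and 343 bases and the others 60 bases each. Whether a probe lies in an exon or a UTR was not annotated in the tables used here.

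Krt8 and Krt18 are neighbours, 23873 bases apart in RefSeq's GRCm38.p6 table, and were the keratins that were high together in the TIC fraction. Their promoter windows, 250 bases before to 50 after the annotated start in the gene's own direction, are therefore printed beside that of Krt5, which lies on the same chromosome and was not high with them. Capitals mark TATAA or its reverse complement TTATA, which overlap in Krt8. The windows are chr15:102004293-102004592 on the minus strand (Krt8), chr15:102027966-102028265 on the plus strand (Krt18) and chr15:101712856-101713155 on the minus strand (Krt5), all in GRCm38.p6.
Krt8: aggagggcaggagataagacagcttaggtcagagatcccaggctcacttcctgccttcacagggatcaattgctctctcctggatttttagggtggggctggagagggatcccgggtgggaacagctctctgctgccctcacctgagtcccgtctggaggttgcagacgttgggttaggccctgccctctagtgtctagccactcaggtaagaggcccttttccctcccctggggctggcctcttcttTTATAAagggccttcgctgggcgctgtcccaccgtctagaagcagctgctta
Krt18: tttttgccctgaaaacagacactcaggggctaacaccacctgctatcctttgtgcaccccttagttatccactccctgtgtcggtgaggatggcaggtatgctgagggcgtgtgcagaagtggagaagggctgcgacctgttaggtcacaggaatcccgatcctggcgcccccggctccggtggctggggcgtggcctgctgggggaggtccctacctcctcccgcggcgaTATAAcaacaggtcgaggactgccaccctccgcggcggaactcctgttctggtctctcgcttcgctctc
Krt5: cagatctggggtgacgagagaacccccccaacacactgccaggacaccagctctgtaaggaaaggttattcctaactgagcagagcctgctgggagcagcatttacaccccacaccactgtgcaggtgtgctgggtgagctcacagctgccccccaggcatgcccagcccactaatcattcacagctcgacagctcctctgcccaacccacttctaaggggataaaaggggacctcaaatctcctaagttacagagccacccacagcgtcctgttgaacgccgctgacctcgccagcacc
TATAA began at position -1 relative to the annotated start in Krt8 and at -19 in Krt18. On either strand it was in the windows of Krt8, Krt18 and Krt10 and not in those of Krt5 and Krt14, among the 5 of the 6 genes in the table, and 24.9% of all 32841 promoter windows held it.

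Which keratins the tumour fraction carried over the blood of the same day was asked first. Krt18 and Krt8 were far higher in the TIC fraction than in day 10 blood, while Krt19, Krt5 and Krt14 were lower by log2 ratio. Krt10 did not pass the test. Of the 7 tested probes, 3 were higher and 3 lower, where 65.8% of all tested probes passed the test, 35.8% higher and 30.0% lower. These 7 probes are too few to set their called share apart from that of all probes. The sizes of the differences are given below and were not ranked among all probes.

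Krt18, the type I partner of Krt8, had Cy5 intensities of 57401, 20069 and 28400 in the TIC fraction of mice 832, 833 and 834, against 8.12, 3.21 and 1.59 in their day 10 blood. All TIC arrays lay above all blood arrays, and no day 10 blood array was well above background. The log2 ratio was 3.55 ± 0.44 higher in the TIC fraction (SE, adjusted p = 0.000162). In single-channel values after loess and quantile normalization of the average intensity, Krt18 was at least 66.9-fold higher. In this bound the day 10 blood spots entered at their measured values, so it is the difference of the group means. Such bounds hold for that scaling only, are open to dye bias, and are not a minimum over other scalings, some of which gave smaller differences.

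Krt8 was read by both of its probes in the same direction. Probe A_51_P242399 had Cy5 intensities of 21836, 5310 and 13454 in the TIC fraction, against -0.76, 8.34 and 9.03 in day 10 blood. Probe A_51_P242400 had 16804, 2768 and 8942 in the TIC fraction, against -2.48, 6.83 and 3.78 in day 10 blood. In day 10 blood neither probe rose above background, and the groups did not overlap. The log2 ratio was higher in the TIC fraction by 3.23 ± 0.37 for the first probe (SE, adjusted p = 0.000103) and by 1.91 ± 0.27 for the second (SE, adjusted p = 0.000355). In the same single-channel scaling as for Krt18, Krt8 was at least 20.4-fold higher by the first probe and at least 13.5-fold higher by the second.

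Krt19, the bile duct keratin, did not follow Krt8 and Krt18. Its Cy5 intensities were 73.9, 11.7 and 40.3 in the TIC fraction, against 5.02, 1.95 and 8.50 in day 10 blood. The unscaled intensities were thus higher in the TIC fraction, whose arrays were brighter as a whole, and only the TIC arrays were well above background. The log2 ratios were -2.15, -2.25 and -1.95 in the TIC fraction and -0.29, -0.53 and -0.06 in day 10 blood, and the ratio was lower in the TIC fraction in all 3 mice (adjusted p = 0.00051). No bound on a fold is given. In the single-channel scaling used for Krt18 the TIC mean of 5.46 lay below the 7.11 of day 10 blood, which was not above background. In Cy5 alone after quantile normalization the difference of -0.37 did not pass the test (adjusted p = 0.454). With median centring the difference turned to 0.23 (adjusted p = 0.488), where the median of all probes was 1.18 higher. Cy5 alone relative to the 75th percentile of each array gave -2.21 (adjusted p = 0.00584). The ratio the authors deposited gave -1.95 (adjusted p = 0.00823).

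Krt5 was the keratin of the 6 that was well above background in Cy5 on all 9 arrays. Its Cy5 intensities were 1167, 137 and 528 in the TIC fraction and 11.7, 10.7 and 31.1 in day 10 blood. The log2 ratios were -2.24, -3.08 and -2.13 in the TIC fraction and -1.10, -1.40 and -0.40 in day 10 blood, without overlap. The ratio was lower by 1.52 on the log2 scale, a difference of -1.52 ± 0.43 (SE, adjusted p = 0.0129), and in all 3 mice. The direction depended on the scaling, since Krt5 was 2.40 higher with median centring (adjusted p = 0.0033), where the median of all probes was 1.18 higher, and differed by -0.35 in Cy5 alone (adjusted p = 0.534).

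Krt14, the basal partner of Krt5, had Cy5 intensities of 577, 32.6 and 232 in the TIC fraction, against 4.85, 3.02 and 6.22 in day 10 blood, where no array was well above background. Its log2 ratios were -1.80, -3.13 and -1.77 in the TIC fraction and -0.87, -1.10 and -0.64 in day 10 blood. The ratio was lower in the TIC fraction in all 3 mice (adjusted p = 0.013), but higher with median centring (1.88, adjusted p = 0.0148), and in Cy5 alone the difference was 0.28 (adjusted p = 0.453). Krt10, by probe A_51_P111285, had log2 ratios of 0.43, -0.41 and 0.28 in the TIC fraction and 0.23, 0.03 and -0.10 in day 10 blood. The groups overlapped (adjusted p = 0.858), and with median centring Krt10 was 1.62 higher (adjusted p = 0.00676).

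**Figure D1:**
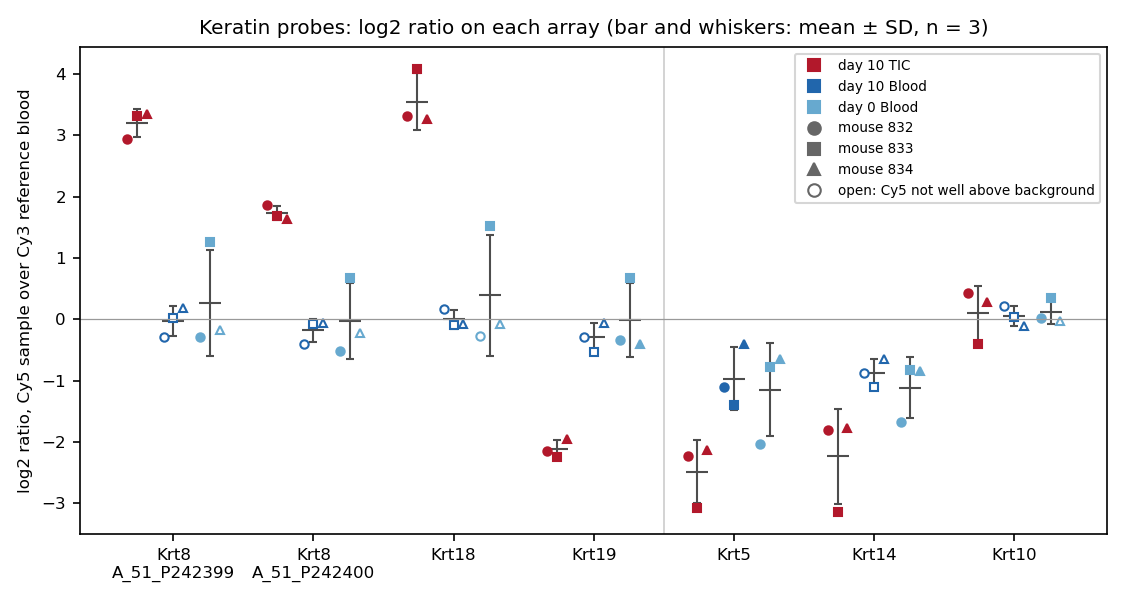
Log2 ratio of Cy5 (sample) over Cy3 (reference blood) of the 7 tested keratin probes on each array, with the mean ± SD of the 3 arrays of a group. Open points were not well above background in Cy5. Krt8 and Krt18 lay at 1.64 or above on every TIC array, and Krt19, Krt5 and Krt14 at -1.77 or below, a direction that turned for these 3 with median centring in the comparison with day 10 blood.

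The slide could not be separated from the group in this comparison by values within a slide. With the slide as a block in the fit, Krt18 (2.97, adjusted p = 0.049), Krt8 by its first probe (2.69, adjusted p = 0.0353) and Krt19 (-2.38, adjusted p = 0.0188) passed the test. Krt8 by its second probe (1.55, adjusted p = 0.0863), Krt5 (-0.88, adjusted p = 0.445) and Krt14 (-1.17, adjusted p = 0.271) did not, and with mouse and slide as blocks together none of the 7 did.

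Compared with blood before inoculation, the TIC fraction showed the same keratins on the same sides. Of the 7 probes 3 were higher and 3 lower, where 63.6% of all tested probes passed, 32.9% higher and 30.7% lower. This comparison shares the TIC arrays with the one before. Fewer cells of a type and less RNA per cell cannot be told apart in such bulk samples.

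Krt18 had Cy5 intensities of 9.22, 117 and 3.22 in the day 0 blood of mice 832, 833 and 834, and was well above background on 1 of the 3 arrays. Its log2 ratios were 3.31, 4.08 and 3.26 in the TIC fraction and -0.27, 1.53 and -0.08 in day 0 blood. The difference was 3.16 ± 0.44 (SE, adjusted p = 0.000373), and 3.73 without the day 0 blood of mouse 833. Krt18 was higher in the TIC fraction of each mouse, by 3.58, 2.56 and 3.34.

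For Krt8, probe A_51_P242399 had log2 ratios of 2.95, 3.32 and 3.35 in the TIC fraction and -0.28, 1.26 and -0.17 in day 0 blood, where 2 of 3 arrays were well above background. The difference was 2.93 ± 0.37 (SE, adjusted p = 0.000219), and 3.43 without mouse 833. Probe A_51_P242400 had 1.87, 1.69 and 1.64 in the TIC fraction and -0.52, 0.67 and -0.22 in day 0 blood. Its difference of 1.76 ± 0.27 (SE, adjusted p = 0.000665) was smaller than that of the first probe, and was 2.10 without mouse 833.

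Krt19 was well above background on all arrays of both groups here. Its Cy5 intensities were 73.9, 11.7 and 40.3 in the TIC fraction and 48.1, 115 and 9.61 in day 0 blood, and its log2 ratios in day 0 blood were -0.33, 0.68 and -0.40. The ratio was lower in the TIC fraction by -2.10 ± 0.28 (SE, adjusted p = 0.000262), -1.75 without mouse 833. In Cy5 alone after quantile normalization it was also lower, with a difference of -1.16 (adjusted p = 0.037), while with median centring the difference of -0.44 did not pass the test (adjusted p = 0.2).

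Krt5 and Krt14 were lower in the TIC fraction by log2 ratio, and these calls were the least stable of the 6 genes. In day 0 blood Krt5 had log2 ratios of -2.02, -0.78 and -0.64 and Krt14 of -1.68, -0.82 and -0.84, so that the TIC array of mouse 832 differed from its day 0 blood by only -0.21 and -0.12, and the groups came close without overlapping. The differences were -1.33 ± 0.43 for Krt5 (SE, adjusted p = 0.0233) and -1.12 ± 0.38 for Krt14 (SE, adjusted p = 0.0308). Without the day 0 blood of mouse 833 they were -1.15 (adjusted p = 0.0771) and -0.97 (adjusted p = 0.0946), and without that of mouse 834 -1.08 (adjusted p = 0.0832) and -0.99 (adjusted p = 0.0957). Without the TIC array of mouse 833 Krt14 differed by -0.67 (adjusted p = 0.0348). With median centring Krt5 and Krt14 were higher by 1.77 and 1.41 (adjusted p = 0.0153 and 0.049), where the median of all probes was 1.0 higher. Krt10 had log2 ratios of 0.03, 0.35 and -0.02 in day 0 blood and a difference of -0.02 ± 0.22 (SE, adjusted p = 0.944), 0.10 without mouse 833 (adjusted p = 0.749), against 1.44 with median centring (adjusted p = 0.0126).

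Within the slide that held 2 arrays of each group, the TIC fraction differed from day 0 blood by 2.84 for Krt8 by its first probe (adjusted p = 0.0398) and by -2.27 for Krt19 (adjusted p = 0.0322). Krt18 (3.05, adjusted p = 0.055), Krt8 by its second probe (1.59, adjusted p = 0.0781), Krt5 (-1.21, adjusted p = 0.196) and Krt14 (-1.20, adjusted p = 0.205) kept their direction and did not pass the test there. With the slide as a block over all arrays, Krt18, both Krt8 probes and Krt19 passed the test, and Krt5 (adjusted p = 0.107) and Krt14 (adjusted p = 0.0807) did not.

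In Cy5 alone, without the reference channel, Krt18 and Krt8 were again higher. After quantile normalization between arrays, Krt18 was 5.71 higher in the TIC fraction than in day 10 blood (adjusted p = 5.06e-05) and 5.23 higher than in day 0 blood (adjusted p = 0.000143). Krt8 was higher by 3.92 and 3.69 over day 10 blood (adjusted p = 0.000149 and 3.4e-05 for its first and second probe) and by 3.66 and 3.22 over day 0 blood (adjusted p = 0.000358 and 0.000127). Krt19 differed by -0.37 from day 10 blood (adjusted p = 0.454) and by -1.16 from day 0 blood (adjusted p = 0.037). Krt5, Krt14 and Krt10 passed in neither comparison, with differences between -0.64 (Krt5 against day 0 blood) and 0.28 (Krt14 against day 10 blood). In Cy5 alone 53.6% of all tested probes passed against day 10 blood, 33.6% higher, and 45.7% against day 0 blood, 26.3% higher. Relative to the 75th percentile of each array, Krt18 differed by 7.96 and 7.72 and Krt5 by -0.47 and -0.87. Krt19 passed the test as lower in that scaling, with -2.21 against day 10 blood (adjusted p = 0.00584) and -3.60 against day 0 blood (adjusted p = 0.000177).

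**Figure D2:**
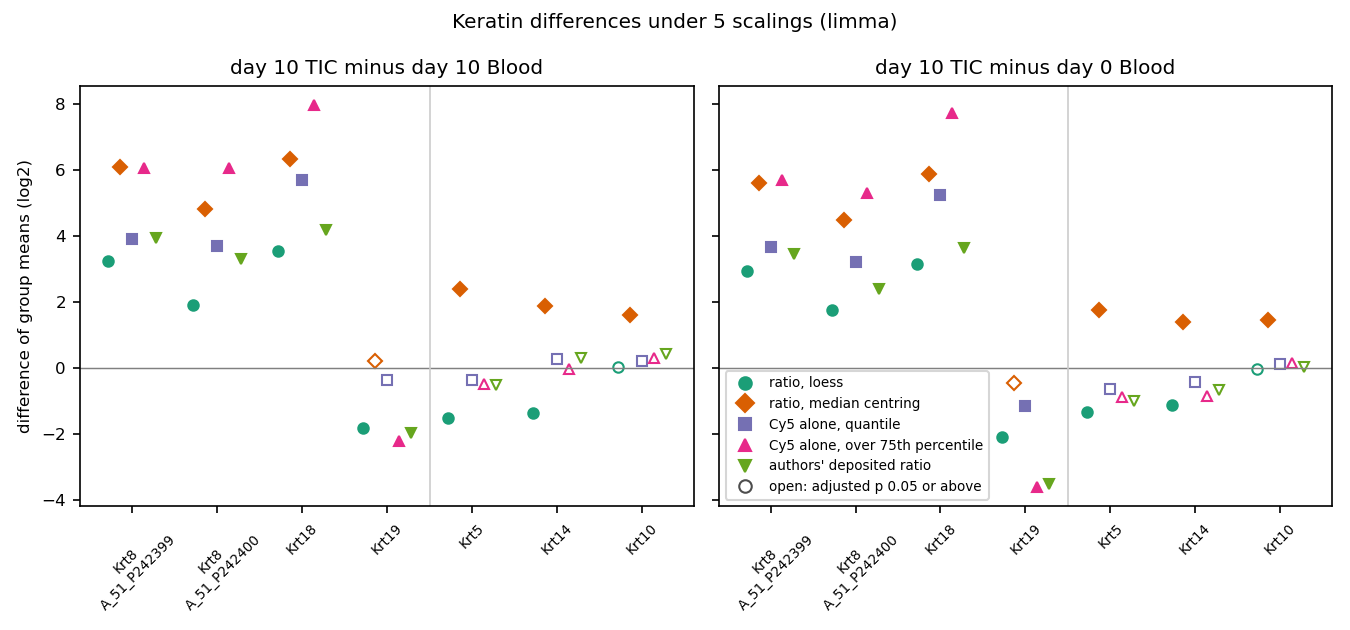
Difference of group means (log2) of the 7 tested keratin probes under 5 scalings, for the TIC fraction minus day 10 blood on the left and minus day 0 blood on the right. Open points had an adjusted p of 0.05 or above. Krt8 and Krt18 were above 0 in every scaling, while Krt5 and Krt14 were below 0 by loess ratio and above 0 with median centring.

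As a share of the summed Cy5 intensity of all tested probes, the 4 probes of Krt8, Krt18 and Krt19 together took 0.141% to 0.252% on the TIC arrays, against 0.00137% to 0.00278% on the day 10 blood arrays and 0.00213% to 0.019% on the day 0 blood arrays. The 3 tested probes of Krt5, Krt14 and Krt10 took 0.00211% to 0.00333% on the TIC arrays, 0.00169% to 0.00469% on the day 10 blood arrays and 0.00238% to 0.00942% on the day 0 blood arrays. For the first group the TIC range lay above both blood ranges, which overlapped, and for the skin keratins all 3 ranges overlapped. These shares are descriptions of the arrays, with no test.

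The reference channel itself differed on the brightest keratins, although the same blood RNA was on every array. Krt18 had a Cy3 intensity of 358 to 487 on the TIC arrays and 33.6 to 51.3 on the 6 blood arrays, a 10.3-fold difference of the means. For Krt8 the Cy3 means differed 3.36-fold by the first probe and 5.64-fold by the second. Krt19, Krt5, Krt14 and Krt10 differed 1.09-, 1.07-, 0.911- and 1.22-fold. Among all probes with a mean Cy3 intensity of 31.6 to 100 on the blood arrays, the median fold was 1.01 for the 3649 with a mean TIC Cy5 intensity up to 100, 1.08 for the 3340 between 100 and 1000, 1.36 for the 912 between 1000 and 10000, and 3.64 for the 37 above 10000. The Cy3 intensity thus moved with the Cy5 intensity, its part in the results was not tested, and a higher Cy3 makes the ratio of Krt18 and Krt8 smaller. These values were chosen after the intensities had been seen.

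**Figure D3:**
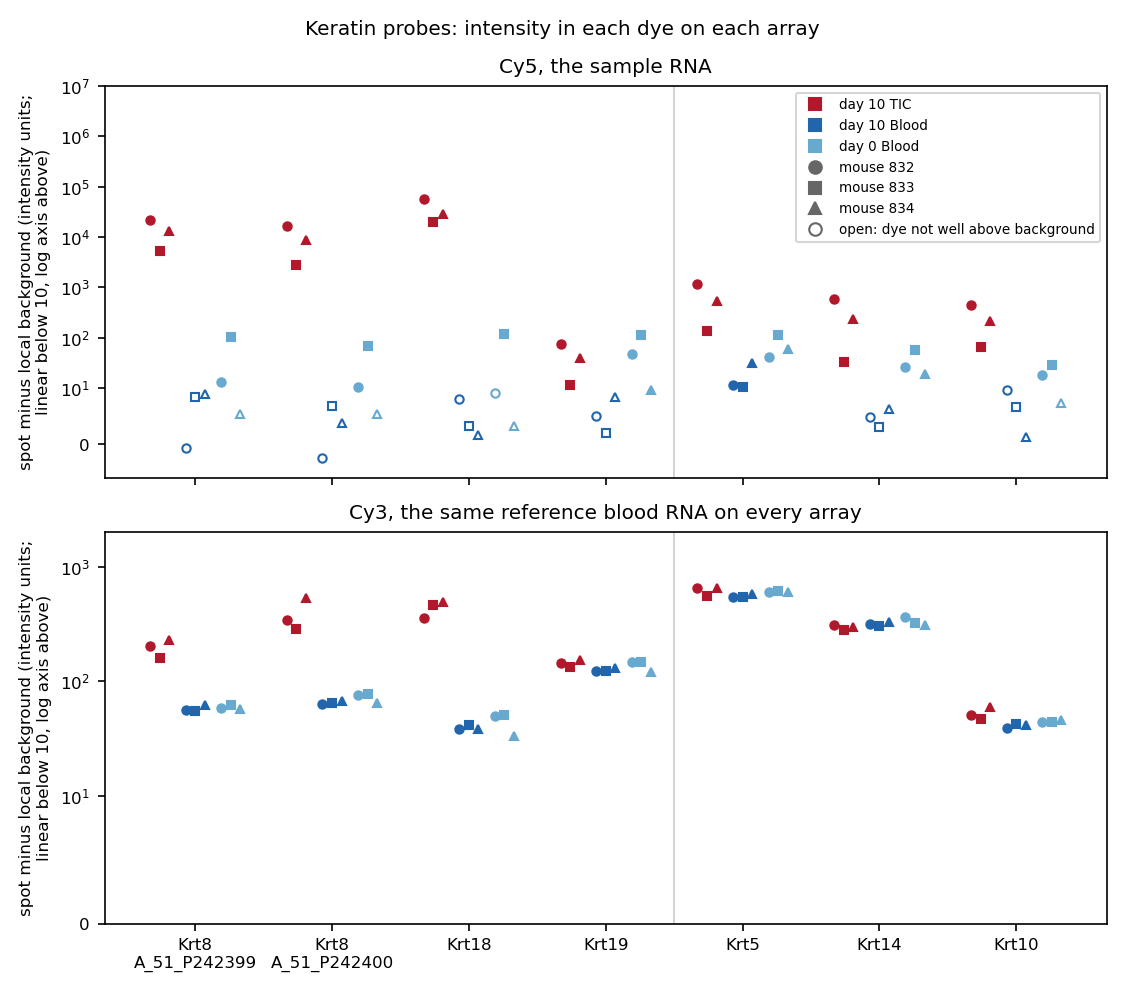
Spot minus local background of the 7 tested keratin probes on each array, in Cy5 above and in Cy3 below, in intensity units on an axis that is linear below 10 and logarithmic above. Open points were not well above background in that dye. Krt8 and Krt18 reached 2768 to 57401 in Cy5 on the TIC arrays, and their Cy3 intensity was also higher there, while Cy3 of Krt5 stayed between 537 and 648 on all 9 arrays.

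Krt5 and Krt14 were measurable in the C57Bl/6 reference blood. Their Cy3 intensities were 537 to 648 and 281 to 364 over the 9 arrays, and all 7 tested keratin probes were well above background in Cy3 on every array. Their log2 ratios were negative in all 3 groups after loess normalization. This sign rests on the scaling and the dye balance: on the TIC array of mouse 832 the unscaled Cy5 intensities, 1167 for Krt5 and 577 for Krt14, were above the Cy3 intensities of 648 and 310, and no dyes were swapped.

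Day 10 blood was set against day 0 blood to see whether keratin transcripts changed in the circulation after inoculation. None of the 7 keratin probes passed the test, where 0.0600% of all tested probes did, 0.0400% higher and 0.0200% lower, and adjusted p-values were between 0.807 and 0.983. Of the 6 genes only Krt5 was well above background on day 10 blood arrays, so a small amount of Krt8 or Krt18 RNA would not have been detected there. In Cy5 alone none of the 7 passed either, where 3.83% of all probes did, 1.74% higher.

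The keratins of simple epithelia differed between the mice in day 0 blood. In mouse 833 the log2 ratios of Krt18, Krt8 by its first and second probe and Krt19 were 1.36, 1.09, 0.74 and 0.74 above the highest of the other 5 blood arrays. These gaps had rank 29, 53, 174 and 173 among 40961 probes. Krt5 and Krt14 did not share this, with gaps of -0.38 and -0.17, and Krt10 had 0.12.

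Other genes had larger gaps on that array, and those named here were chosen after its values were seen. Reg3g, an antibacterial lectin, had a Cy5 intensity of 2154 there against 3.98 to 53.1 on the other blood arrays. Wfdc2 had 2194 against 9.67 to 122, Muc5ac, a gel-forming mucin, had 949 against 7.43 to 46.7, and Calml3, a gene of the keratinocyte list, had 584 against 9.42 to 147. Their part in the keratin values of this array was not tested.

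The order of the 3 groups differed between the genes. Krt18 and Krt8 were highest in the TIC fraction, and both bloods followed without a difference beyond their spread. Krt19 was lowest in the TIC fraction by log2 ratio, with a mean of -2.11 ± 0.15 (SD, n = 3), against -0.29 ± 0.24 in day 10 blood and -0.02 ± 0.60 in day 0 blood. Krt5 had means of -2.48 ± 0.52, -0.97 ± 0.52 and -1.15 ± 0.76, and Krt14 of -2.23 ± 0.78, -0.87 ± 0.23 and -1.11 ± 0.49, in TIC, day 10 blood and day 0 blood. The means of Krt10 lay between 0.05 and 0.12 in all 3 groups. The order of Krt19, Krt5 and Krt14 depended on the scaling. With median centring the TIC fraction was above day 10 blood by 0.23, 2.40 and 1.88, and against day 0 blood differed by -0.44, 1.77 and 1.41. By the ratio the authors deposited, Krt19 differed by -1.95 from day 10 blood and -3.50 from day 0 blood and passed the test. Krt5 differed by -0.51 and -0.99 in that ratio and Krt14 by 0.32 and -0.67, and neither passed.

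Within the blood arrays the keratin partners could be set side by side. Over the 6 blood arrays, which come from 3 mice, Krt5 and Krt14 had a Pearson correlation of log2 ratios of 0.96 and a Spearman correlation of 0.94. Without the 2 arrays farthest from the median of Krt5 the Pearson value was 0.89. Krt8 by its first probe and Krt18 had 0.92 and 0.26, and -0.13 without the 2 farthest arrays, so that their relation in blood rested on those arrays, one of them day 0 blood of mouse 833. These arrays share mice and slides, and the values are a description.

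Over all 9 arrays, which fall into TIC and blood, the genes most like each keratin were named by Pearson correlation of log2 ratio. Krt18 was most like Lsr, a lipoprotein receptor of liver and epithelial tight junctions (0.99), Ptprf (0.99) and Pcyox1 (0.99). Krt8 by its first probe was most like Hadh, an enzyme of fatty acid oxidation (0.99), Sqle, an enzyme of sterol synthesis (0.99), and Cops7a (0.99), and by its second probe like Dhrs7b (0.99), Npc2 (0.99) and Sqle (0.98). Krt19 was most like Slc16a11 (0.99), Tk2 (0.99) and Ptprc, the leukocyte antigen CD45 (0.99). Krt5 was most like Krt14 (0.96), Kif3c (0.96) and Lrch4 (0.95), Krt14 like Tm9sf4, Ctsw and Siah1b (0.97 each) and Krt10 like Ilvbl (0.97), Nop14 (0.96) and Ncln (0.95). Such values are common for genes that part the TIC fraction from blood: 12.8% of probes reached over 0.9 with Krt8 by its first probe and 5.59% with Krt19, against 0.199% with Krt5 and 0.114% with Krt10.

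The rest of the keratin family was measured by 45 further probes of 40 genes, of which 13 probes entered the tests. The other keratins of simple epithelia had 1 of 5 tested probes higher and 0 lower against day 10 blood. Their median difference was 0.0037 by ratio, 0.41 in Cy5 alone and 2.51 with median centring. Against day 0 blood 1 was higher and 3 lower, with a median of -0.55, which became 1.24 with median centring. Of all tested probes 35.8% were higher and 30.0% lower against day 10 blood, and 32.9% and 30.7% against day 0 blood. Krt20, a keratin of intestinal and urothelial lining, was the one that followed Krt8 and Krt18. It had Cy5 intensities of 6918, 1562 and 4160 in the TIC fraction, against 1.48, 0.46 and -0.08 in day 10 blood and -0.98, -1.83 and 1.85 in day 0 blood (adjusted p = 1.92e-06 and 2.73e-06). No blood array was well above background for Krt20, so it entered the tests through its TIC arrays alone, and its p-values do not stand apart from that filter.

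Krt7, a type II keratin of ducts, was bright in the TIC fraction and in the blood of day 0 by probe A_51_P312348, whose Cy5 intensities were 5395, 828 and 2872 in the TIC fraction, 24.4, 64.8 and 33.1 in day 10 blood and 657, 1017 and 121 in day 0 blood. The TIC fraction did not differ from day 10 blood in log2 ratio beyond the error (0.05, adjusted p = 0.926) and was lower than day 0 blood (-1.67 ± 0.43 SE, adjusted p = 0.00911), by -1.23 without the day 0 blood of mouse 833 (adjusted p = 0.0225). The dimmer Krt7 probe A_52_P410685 passed in neither comparison, with 0.0037 (adjusted p = 0.993) against day 10 blood and -0.37 (adjusted p = 0.355) against day 0 blood. Krt23 had intensities of 614, 373 and 642 in the TIC fraction, 4.50, 14.7 and 8.75 in day 10 blood and 161, 269 and 26.1 in day 0 blood, with a difference of -1.22 ± 0.36 from day 0 blood (SE, adjusted p = 0.0166), and of -0.84 without mouse 833 (adjusted p = 0.0441). Krt80 was above background in day 0 blood alone, and the TIC fraction differed from it by -0.55 (adjusted p = 0.00234).

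The other keratins of stratified epithelia had 6 of 7 tested probes lower and none higher in both comparisons, where 30.0% and 30.7% of all probes were lower. In Krt6b both the TIC fraction and day 10 blood were at background, so its call against day 10 blood compares dim spots. Their median difference was -0.93 from day 10 blood and -1.34 from day 0 blood by loess ratio, -1.02 and -1.37 in Cy5 alone, and 0.37 and -0.33 with median centring, so the first of these turned. Krt1, the partner of Krt10 in the upper epidermis, had Cy5 intensities of 22.3, 8.82 and 10.9 in the TIC fraction, 40.0, 94.2 and 68.9 in day 10 blood and 250, 151 and 33.9 in day 0 blood. It was lower in the TIC fraction by -3.46 ± 0.32 (SE, adjusted p = 2.84e-05) and -2.87 ± 0.32 (SE, adjusted p = 0.000109), and the groups did not overlap even before scaling. Krt17, a keratin of hair follicles and of injured skin, differed by -2.39 ± 0.13 and -2.60 ± 0.13 (SE), and Krt15, of basal cells, by -3.31 ± 0.48 and -3.41 ± 0.48 (SE). Krt16 differed by -0.93 and -1.34 (adjusted p = 0.000109 and 1.98e-05), and Krt6b by -1.30 from day 0 blood (adjusted p = 0.00204). Krt13 differed by -0.75 and -0.73 in log2 ratio (adjusted p = 0.0022 and 0.0027). In Cy5 alone Krt13 passed in neither comparison (-0.09 and -0.26, adjusted p = 0.779 and 0.386). Its unscaled Cy5 intensities were 52.3 to 154 in the TIC fraction and 6.08 to 33.25 in day 0 blood. In day 10 blood they were 2.92 to 6.20, so its ratio there came from dim spots. Krt76 passed in neither comparison. Without the day 0 blood of mouse 833 the same number, 6 of 7, were lower than in day 0 blood. Of 17 hair keratin probes only that of Krt33b entered the tests, and it did so through the TIC arrays alone. It had 322, 37.4 and 153 there and at most 4.60 in blood (adjusted p = 0.0195 and 0.0213). These p-values do not stand apart from the filter, and Krt33b did not pass against day 0 blood without mouse 833 (0.74, adjusted p = 0.0529).

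**Figure D4:**
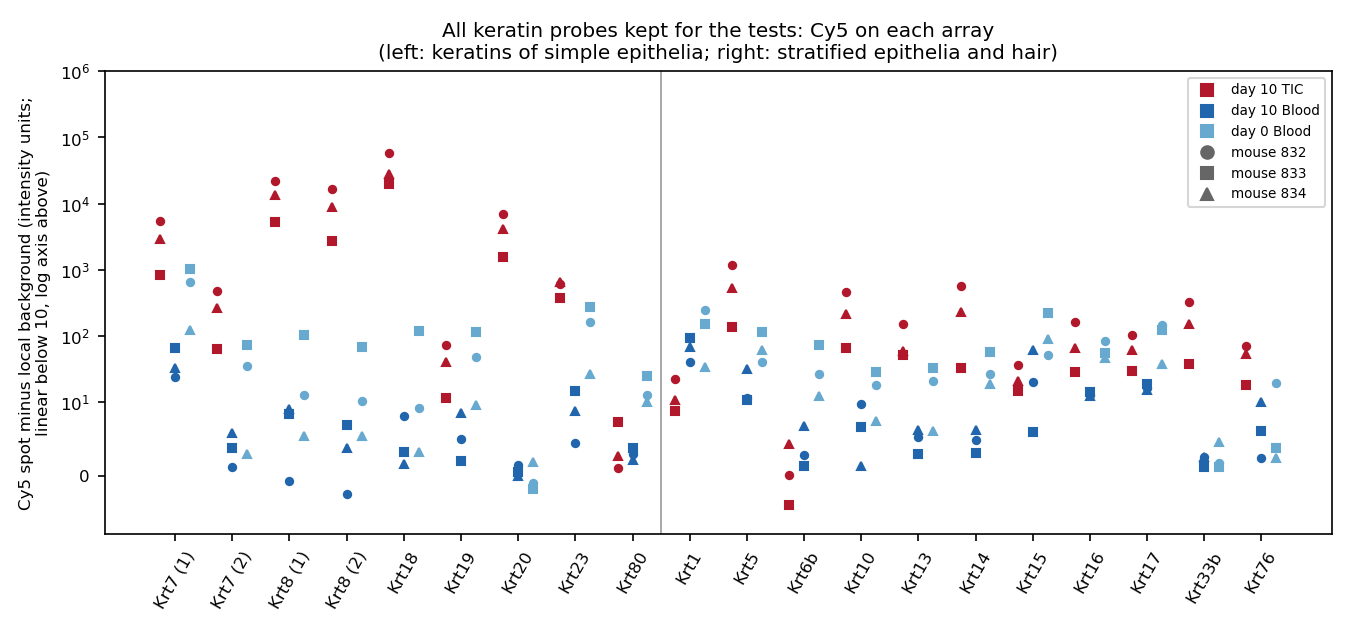
Cy5 spot minus local background of the 20 keratin probes that entered the tests, on each array, in intensity units on an axis that is linear below 10 and logarithmic above, with keratins of simple epithelia left of the line. Krt8, Krt18 and Krt20 reached 1562 to 57401 on the TIC arrays and at most 117 on the blood arrays, and Krt7 reached 1017 in day 0 blood.

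Genes of hepatocytes and hepatoma cells were read beside Krt8 and Krt18, since Hepa1-6 cells make both. Of 22 tested probes 17 were higher and 4 lower in the TIC fraction in both comparisons, with medians of 1.36 against day 10 blood and 1.33 against day 0 blood, where the medians of all tested probes were 0.12 and 0.07 and 35.8% and 32.9% of them were higher. Without mouse 833 the counts against day 0 blood were the same. Afp, the fetal albumin of hepatomas, had Cy5 intensities of 49219, 35559 and 20972 in the TIC fraction, against 7.51, 5.69 and 5.45 in day 10 blood and 20.5, 11.7 and 6.07 in day 0 blood. Alb had 41948, 19473 and 21863 in the TIC fraction, at most 2.26 in day 10 blood and at most 4.47 in day 0 blood (adjusted p = 2.8e-06 and 4.96e-06). The summed Cy5 share of this list was 0.831% to 1.44% on the TIC arrays, 0.0167% to 0.0206% on the day 10 blood arrays and 0.0166% to 0.0202% on the day 0 blood arrays. It moved with Krt8 and Krt18, and its part in them was not tested.

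Bile duct and progenitor genes were read beside Krt19. Of 8 tested probes 5 were higher and 1 lower against day 10 blood, and 4 and 1 against day 0 blood (5 and 1 without mouse 833). Among all tested probes 35.8% were higher and 30.0% lower against day 10 blood, and 32.9% and 30.7% against day 0 blood. Sox9, a factor of bile duct cells, had 302, 484 and 124 in the TIC fraction, at most 0.23 in day 10 blood and at most 9.88 in day 0 blood (adjusted p = 0.000696 and 0.0014). Spp1, the secreted protein osteopontin that macrophages also make, had 4627, 474 and 1982 in the TIC fraction and at most 5.07 in blood, and passed the test against day 0 blood (adjusted p = 0.0033) but not against day 10 blood (adjusted p = 0.064). Cd24a, a surface protein that blood cells share, was lower by -5.08 ± 0.30 against day 0 blood (SE, adjusted p = 5.07e-06).

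Genes of epidermal keratinocytes were read beside Krt5, Krt14 and Krt10. Of their 25 genes on the array, 15 were not well above background on any TIC array, against 17 in day 10 blood and 13 in day 0 blood. Trp63, the regulator of basal keratinocytes, and Ivl, Dsg3 and Col17a1 were among them, with at most 5.69 intensity units on any TIC array. Others of the list were bright there: Sbsn had 188 to 2762 in the TIC fraction by probe A_52_P573336, against at most 18.8 on any blood array. Sfn had 530 to 1281 in the TIC fraction by probe A_52_P334188, against at most 63.8 on any blood array. By probe A_52_P334191 it had at most 17.7 in the TIC fraction and 37.1 in blood, and by A_51_P213940 at most 15.0 and 9.25. These genes were picked after their values were seen. Perp, a desmosome protein made outside skin as well, had 2566, 948 and 1617 in the TIC fraction, against 1.24, 2.92 and 14.3 in day 10 blood and 23.8, 91.0 and 19.5 in day 0 blood (adjusted p = 0.00177 and 0.00511). Of the 11 tested probes, 2 were higher and 5 lower against day 10 blood, and 1 and 4 against day 0 blood (1 and 5 without mouse 833). Among all tested probes 35.8% were higher and 30.0% lower against day 10 blood, and 32.9% and 30.7% against day 0 blood. Klk7, Lce1a1 and Calml3 differed by -2.84, -3.08 and -2.35 from day 10 blood (adjusted p = 4.08e-06, 1.52e-05 and 0.00415). From day 0 blood they differed by -2.02, -2.79 and -3.66 (adjusted p = 3.02e-05, 3.75e-05 and 0.000412), Calml3 by -2.96 without mouse 833. In Cy5 alone Klk7 did not pass against day 0 blood (-0.36, adjusted p = 0.116). Lor, a protein of the cornified layer, reached 7.89 units in the TIC fraction, 36.1 in day 10 blood and 213 in day 0 blood. The summed share of the list was 0.0151% to 0.0441% on the TIC arrays, 0.0307% to 0.0481% on the day 10 blood arrays and 0.0335% to 0.061% on the day 0 blood arrays.

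Genes whose proteins hold keratin filaments at desmosomes and hemidesmosomes had 10 of 23 tested probes higher and 6 lower against day 10 blood, and 11 higher and 6 lower against day 0 blood (10 and 5 without mouse 833). These shares lie near those of all tested probes, 35.8% higher and 30.0% lower against day 10 blood and 32.9% and 30.7% against day 0 blood. Itgb4, the hemidesmosome integrin, had 1245, 760 and 479 in the TIC fraction, at most 11.2 in day 10 blood and 23.9, 16.2 and 4.74 in day 0 blood (1.12 ± 0.16 SE against day 0 blood, adjusted p = 0.000382). Pkp2, a desmosome plaque protein, had 104, 82.4 and 67.5 in the TIC fraction and at most 3.37 in blood (adjusted p = 0.00256 and 0.00191). Evpl, envoplakin of stratified epithelia, was lower against day 0 blood (-2.21 ± 0.19 SE, adjusted p = 2.78e-05). Among general epithelial genes, Cldn4 had 572, 90.5 and 202 in the TIC fraction and at most 5.91 in blood (adjusted p = 0.00193 and 0.00165), while Cldn7 was not well above background on any TIC or day 10 blood array, and was lower in the TIC fraction than in day 0 blood (adjusted p = 0.00012). Spint2 was higher (0.87 and 0.81, adjusted p = 0.00136 and 0.0021) and St14 lower (-0.78 and -0.75, adjusted p = 0.00104 and 0.00152). Of the 10 tested probes of this list 4 were higher and 2 lower against day 10 blood, and 3 and 3 against day 0 blood (4 and 3 without mouse 833). Epcam had 83.5 to 222 units, well above background on all 3 TIC arrays, and at most 12.9 in blood, where no array was. Cdh1, E-cadherin, was not tested and was well above background on 1 of 3 TIC arrays, with at most 14.0 units.

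Among other intermediate filament genes 5 of 10 tested probes were higher and 3 lower in both comparisons (5 and 2 against day 0 blood without mouse 833), where 35.8% and 32.9% of all tested probes were higher and 30.0% and 30.7% lower. Lmnb2, a nuclear lamin, had 71.8, 66.4 and 50.6 in the TIC fraction and at most 4.11 in blood (adjusted p = 0.000378 and 0.0009), and Nes, nestin, was lower by -1.60 ± 0.15 against day 0 blood (SE, adjusted p = 3.68e-05). Of the partners that bind keratins, 7 of 10 tested probes were lower and 1 higher against day 0 blood (7 and 0 without mouse 833), with a median of -0.99 that became 1.30 with median centring. Ywhah, a 14-3-3 protein, differed by -3.46 ± 0.47 and Dnajb6, a cochaperone of Krt18, by -1.60 ± 0.31 (SE, adjusted p = 0.000316 and 0.00246).

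Leukocyte and red cell genes were measured in the same fraction. Ptprc was lower in the TIC fraction by -3.37 ± 0.46 against day 10 blood and -4.03 ± 0.46 against day 0 blood (SE, adjusted p = 0.000269 and 0.000115), yet was well above background on all TIC arrays, with 1281, 954 and 413. Of 25 tested leukocyte probes 3 were higher and 13 lower against day 10 blood, and 2 and 16 against day 0 blood (2 and 15 without mouse 833). Of all tested probes 35.8% and 32.9% were higher and 30.0% and 30.7% lower. The list medians of -0.54 and -0.89 became 2.25 and 1.77 with median centring, so their direction depended on the scaling. The summed share of the leukocyte list was 0.169% to 0.536% on the TIC arrays, 0.173% to 0.295% on the day 10 blood arrays and 0.323% to 0.472% on the day 0 blood arrays. The red cell list took 0.0157% to 0.0287%, against 2.85% to 3.85% and 2.07% to 3.73%, with all 14 tested probes lower in both comparisons, with and without mouse 833. The keratin ratios are relative to a reference that is blood as well.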

How the data were processed

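RNA of 9 samples was measured on 9 two-colour Agilent arrays. The authors deposited scanner tables with spot and background intensity and a log10 ratio (Cy5 over Cy3), made with Agilent Feature Extraction 10.5.1.1 per the file headers (9.1.3.1 per the submitters' processing notes). The deposited value table held the same log10 ratios, median 0 on each array, sample over reference. Here background was corrected by normexp (offset 50) and log2 ratios were computed from the deposited intensities and normalized by loess within arrays, with spots of non-uniform background left out. Spots of a probe were averaged, and probes were kept where 3 or more arrays had Cy5 well above background and all had values. The comparisons used limma 3.58.1 (R 4.3.3) on all 9 arrays with group as the only term (6 residual degrees of freedom), a threshold of 0.05 and Benjamini-Hochberg adjustment over 19995 probes, a fit also tested on simulated data. The number of arrays limits the precision, and replicates are 1 mouse each.

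The members and the gene lists were chosen with earlier results of these data known. All probes of the 6 keratins are named, from each list up to 4 genes with the smallest p against day 0 blood plus Afp, Alb and Ptprc, and for each keratin probe the 3 genes with the highest correlation. Marker genes named beside these, such as Trp63, Lor and Cdh1, were picked after their values were seen. Names came from probe accessions through a GRCm38.p6 table. Equal mouse numbers mark the same animal in the labels, and deviations of the same mouse correlated at 0.18 to 0.32 between bloods and -0.06 to 0.06 with TIC. Alternatives were other scalings, filters, blocks and left-out arrays. No dyes were swapped.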

Additional observations from a re-analysis of the deposited data

How the results depend on the processing

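Krt18 and both Krt8 probes were higher, and passed the test, in every alternative that tested them except blocks and the single slide named in the report. The direction of Krt19, Krt5, Krt14 and Krt10 depended on the scaling, and the cause was not tested. Against day 10 blood, median centring gave 0.23 (Krt19), 2.40 (Krt5) and 1.88 (Krt14), Krt14 was 0.32 by the deposited ratio and 0.28 in Cy5 alone, and Krt10 was -0.36 with processed signals and loess. Against day 0 blood, median centring gave 1.77 (Krt5), 1.41 (Krt14) and 1.44 (Krt10), and Krt10 was 0.038 by the deposited ratio and 0.12 and 0.16 in Cy5 alone by quantile and 75th percentile. Between the bloods, Krt5 and Krt14 were -0.42 and -0.86 with processed signals, -0.49 and -0.99 by the deposited ratio, -0.63 and -0.47 with median centring, -0.30 and -0.69 in Cy5 alone by quantile and -0.40 and -0.82 by 75th percentile, none of them called.

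The mouse as a replicate block changed no keratin call, with 6, 6 and 0 keratin probes called. With the slide as a block 3 and 4 keratin probes were called against day 10 and day 0 blood, of 5316 and 9421 in all, and Krt10 was -0.33 against day 10 blood. With mouse as replicate block and slide together, 0 and 4 keratin probes were called, of 1294 and 5431, and Krt10 was -0.48. Between the bloods the slide block, and equally the shared slide alone, gave 0.15 and 0.041 (Krt8), 0.075 (Krt18), 0.11 (Krt19), -0.32 (Krt5), -0.033 (Krt14) and 0.072 (Krt10), and both blocks gave 0.40 and 0.20 (Krt8), 0.38 (Krt19) and 0.17 (Krt10).

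Fewer keratin probes were called against day 10 blood in Cy5 alone (3). Requiring signal on all 9 arrays leaves 1 keratin probe, Krt5, called in both comparisons, of 3406 and 3344 in all. Within 1 slide, 2 keratin probes were called against day 0 blood, of 4219. Between the bloods, no keratin probe was called in any alternative, and 0 probes in all with all spots in normexp, median centring, no filter, 1 probe per gene and either slide block, but 840 by the deposited ratio, 765 in Cy5 alone, 177 with signal on all arrays, 962 with these groups alone and 758 within the slide. Leaving out 1 array gave 0 to 1275 probes, 1275 without the TIC array of mouse 833, and differences of -0.57 to 0.20 and -0.41 to 0.19 (Krt8), -0.73 to 0.17 (Krt18), -0.47 to 0.072 (Krt19), -0.26 to 0.43 (Krt5), -0.044 to 0.39 (Krt14) and -0.15 to 0.048 (Krt10). For Krt10 it gave -0.12 to 0.30 against day 10 blood and -0.19 to 0.24 against day 0 blood. Dim Cy5 signal limits every value in day 10 blood.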

Other observations

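Further lists held values that bear on what else the TIC fraction contained beside keratins. Dcn, decorin of fibroblasts, had Cy5 intensities of 139688, 17765 and 60574 in the TIC fraction, at most 2.68 in day 10 blood and at most 9.03 in day 0 blood (adjusted p = 2.16e-06 and 2.7e-06). Aif1, a protein of macrophages, had 38000, 1467 and 11886 in the TIC fraction, at most 5.21 in day 10 blood and 25.9, 27.5 and 16.6 in day 0 blood. Fabp4, of fat cells and macrophages, had 4638, 420 and 2284 in the TIC fraction, against 22.5, 36.4 and 20.6 in day 10 blood and 28.0, 34.8 and 26.8 in day 0 blood, and did not pass the test in log2 ratio (adjusted p = 0.907 and 0.0584). Of the fibroblast and endothelial list 3 of 13 tested probes were higher and 8 lower against day 10 blood. Against day 0 blood 3 were higher and 5 lower (2 and 5 without mouse 833). Pecam1, Col1a1 and Col1a2 passed as lower, by -1.23, -1.69 and -1.66 against day 10 blood and by -1.32, -1.02 and -0.86 against day 0 blood. In Cy5 alone Pecam1 passed as lower too, while Col1a1 and Col1a2 did not pass. Of the muscle, fat and pigment list 2 of 5 were higher and 2 lower against day 0 blood (1 and 2 without mouse 833). Of all tested probes 35.8% were higher and 30.0% lower against day 10 blood, and 32.9% and 30.7% against day 0 blood. Adipoq, Ckm and Mlana were each well above background on 1 of 3 TIC arrays, with at most 28.8 units.

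In day 0 blood Krt7 and Krt23 were high in mice 832 and 833 and lower in mouse 834, with 657, 1017 and 121 for Krt7 and 161, 269 and 26.1 for Krt23, while Krt18 was high in mouse 833 alone. Of all 53 keratin probes, 23 showed no Cy5 signal well above background on any of the 9 arrays.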
